A study of Mus musculus with 4 samples.

Results

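Bergmann glia and astrocytes of the developing cerebellum were followed through 10 genes that are widely used to mark them. The genes were GFAP, VIM, SLC1A3, SLC1A2, GLUL, AQP4, FABP7, S100B, ALDH1L1 and HES5. They were chosen by name, and every probe on the array whose target symbol was one of these genes was taken, and symbols are given as the array spells them. This gave 18 probes of the 45281 on the array, for 10 of its 30854 gene symbols, and each gene had at least 1 probe.

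The samples were anterior and posterior lobes of cerebellum from untreated Swiss mice at postnatal day 7 (PN7), dissected apart, with 2 samples per lobe and 1 Illumina MouseWG-6 array for each. Each gene is read on such an array by probes carried on many beads, and the brightness of a probe is its intensity. The question put to the data was which genes differ between the lobes. No source used here says that the 2 samples of a lobe came from separate animals, so the p-values measure only the spread between these samples, which may be technical.

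Bergmann glia are astrocytes that keep a radial form. Their cell bodies lie among the Purkinje cells and their fibres cross the molecular layer to the surface of the cerebellum, and the granule neurons of the early postnatal cerebellum descend along these fibres. Like other astrocytes they clear glutamate from synapses, turn it into glutamine, and handle water and potassium, and Notch signalling helps to keep them in the glial state.

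Of the 18 probes, 13 were tested, those with a detection p under 0.05 on at least 2 of the 4 arrays. They covered 8 of the 10 genes. The detection p is the scanner software's comparison of a probe with the negative control probes of the same array. The remaining 5 probes were detected on no array, with intensities of 70.4 to 123.3 and detection p of 0.0844 to 0.564. These were the only probes of GLUL, the enzyme that makes glutamine from glutamate, and of S100B, a calcium-binding protein, together with 1 probe of VIM and 2 of SLC1A2. Intensities of the GLUL probe were 102.9 and 85.2 on the anterior arrays and 94.4 and 106.3 on the posterior arrays. The S100B probe gave 83.6 and 77.0 in anterior and 84.0 and 70.4 in posterior lobes. With 1 probe each at background, GLUL and S100B had no measured level here, and nothing follows for their transcripts. GFAP, VIM, SLC1A3, SLC1A2, AQP4, FABP7, ALDH1L1 and HES5 each had at least 1 probe detected on all 4 arrays, so astroglial transcripts were measured in both lobes.

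No astroglial marker passed either threshold between the lobes, and the differences ran both ways. The study's criterion was a fold of over 1.2 with an unadjusted p under 0.05. In the limma fit 0 of the 13 probes passed it, where 8.29% of the 21726 tested probes did, 3.3% higher and 5% lower in posterior lobes. An adjusted p under 0.05 was reached by 0 of the 13 and by 0.106% of all probes, and the lowest adjusted p of a member was 0.452. At an unadjusted p under 0.05 limma counted 1 member probe, AQP4 ILMN_2757232. The methods' t-test counted 2 different ones, HES5 ILMN_1253414 and SLC1A2 ILMN_3076439, and did not count the AQP4 probe. The share of all tested probes under that p alone is not given here. The log2 difference, posterior minus anterior, was positive for 5 probes and negative for 8. With 1 probe per gene, the one of highest mean signal, the median difference over 8 genes was -0.033, beside 0.0079 over all 15615 tested genes. In 6 of the 13 probes (46.2%) the arrays of the lobes did not overlap, beside 42.6% of all tested probes. In bulk tissue, fewer cells of a type and less RNA per cell cannot be told apart, and this applies to every difference given here.

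The precision of these comparisons was set by 4 arrays. The exact permutation test of 2 against 2 arrays cannot give a p under 0.333, and so the spread shared across probes in limma was used. For a fold of 1.2, 0.26 on the log2 scale, the median SE of a tested probe was 0.11. The anterior arrays differed more from each other than the posterior arrays did, with an SD over probes of the difference between replicates of 0.32 against 0.20. Without anterior replicate 1 the number of member probes past the study's criterion was 4, where 22.1% of all tested probes passed it, and without anterior replicate 2 it was 3, where 9.17% did. Leaving out posterior replicate 1 gave 1 such probe, beside 3.58% of all probes, and leaving out posterior replicate 2 gave 0, beside 3.8%.

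**Figure D1:**
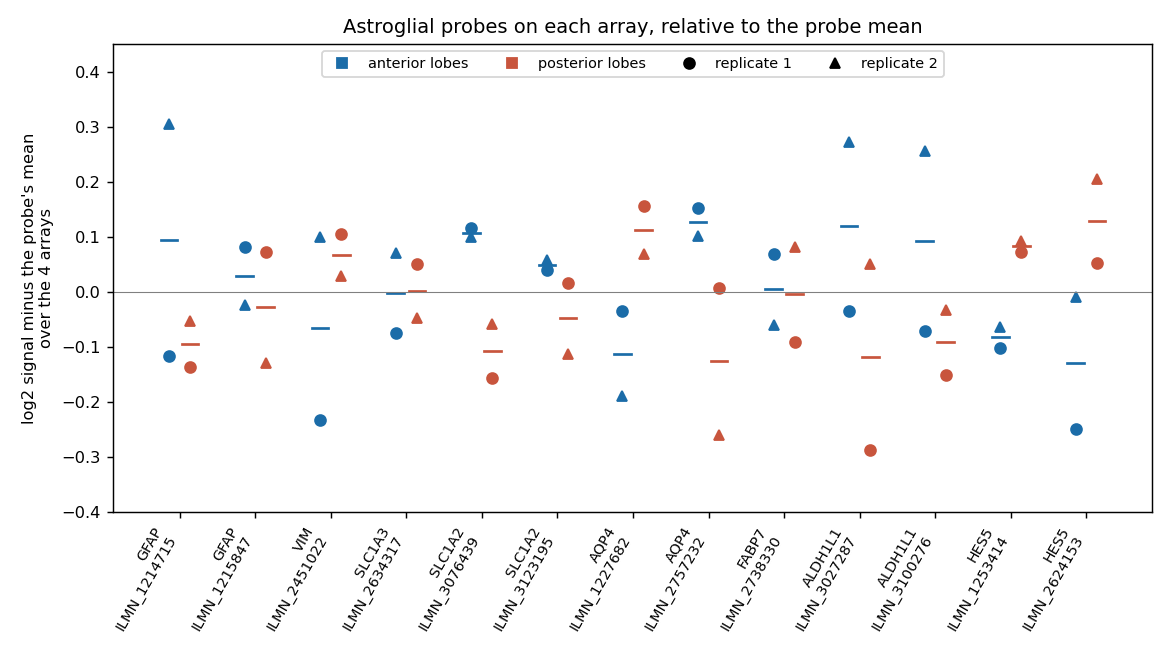
Normalised signal of the tested astroglial probes by array. The vertical axis is log2 intensity minus the mean of that probe over the 4 arrays, each point is 1 array (colour for lobe, shape for replicate), and short bars mark lobe means of 2 arrays. The points of the lobes overlap in 7 of the 13 probes, with 3 probes wholly higher and 3 wholly lower in posterior lobes.

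HES5, a transcriptional repressor that Notch signalling switches on in radial glia, was higher in both posterior samples on both of its probes, without passing a threshold. The probe ILMN_2624153 read 8.78 and 9.02 (log2 intensity, replicates 1 and 2) in anterior and 9.08 and 9.23 in posterior lobes. The other probe, ILMN_1253414, read 9.44 and 9.48 in anterior and 9.62 and 9.64 in posterior lobes. Every posterior array stood above every anterior array on both probes, an order shown by 21.1% of all tested probes. The log2 difference was 0.26 (SE 0.14, 95% interval -0.08 to 0.60) on the first probe, with a limma adjusted p of 0.585. On the second it was 0.17 (SE 0.10, interval -0.09 to 0.42), with a limma adjusted p of 0.631. The first probe passed the study's criterion only without anterior replicate 2, at 0.37, and stood at 0.14 without anterior replicate 1.

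The DNA upstream of HES5 and of GFAP is shown because both genes are read as outputs of Notch signalling in glia, through the DNA-binding protein RBPJ. The 250 bases before each transcription start were taken from RefSeq (GRCm38.p6), and the RBPJ core TGGGAA, searched on both strands, is in capitals (TTCCCA on the reverse strand). The HES5 stretch is chr4:154960673-154960922 on the plus strand and the GFAP stretch is chr11:102897201-102897450 on the minus strand, each written 5′ to 3′ towards the start.
HES5: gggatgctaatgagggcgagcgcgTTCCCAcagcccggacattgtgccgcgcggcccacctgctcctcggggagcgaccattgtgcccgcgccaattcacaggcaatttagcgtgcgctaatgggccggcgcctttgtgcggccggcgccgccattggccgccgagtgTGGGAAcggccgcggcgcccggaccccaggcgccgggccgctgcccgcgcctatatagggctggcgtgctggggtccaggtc
GFAP: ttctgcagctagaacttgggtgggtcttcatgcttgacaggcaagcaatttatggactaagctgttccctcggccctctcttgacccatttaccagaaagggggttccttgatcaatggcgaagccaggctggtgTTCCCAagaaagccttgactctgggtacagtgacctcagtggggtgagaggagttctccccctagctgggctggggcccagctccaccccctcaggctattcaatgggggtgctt
In the HES5 stretch the core occurs at 2 places, at -226 to -221 and at -82 to -77 from the start. In the GFAP stretch it occurs once, at -115 to -110. The same core was found upstream of 5 of the 9 members searched, the others being FABP7, S100B and ALDH1L1, and in 21.6% of 32851 promoters of the same length. AQP4 was the member not searched. A STAT site, TTCNNNGAA, was found upstream of SLC1A3 alone among the 9, at -96 to -88, and in 7.02% of all promoters. These motifs were chosen after the array values were seen, and an NFI site and a TATA box were searched first and set aside. A match describes letters and not binding. 

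The Notch pathway around HES5 was measured through 14 further genes, of which 0 passed the criterion higher in posterior and 1 lower. The background over all genes, 1 probe per gene, was 7.92% in either direction, 3.45% higher and 4.46% lower. The gene was JAG2, a Notch ligand, at 8.21 and 8.40 in anterior and 8.05 and 7.92 in posterior lobes, a difference of -0.32 (SE 0.13, limma adjusted p = 0.493). MFNG, a glycosyltransferase that modifies Notch, passed on 1 probe at -0.38 but stood at 0.03 on its brighter probe. The receptor NOTCH1 (-0.0039), the Notch effector HES1 (-0.02) and its relative HEY1 (0.07) were named after their values were seen, and none of them passed. The list had a median difference of 0.016. NOTCH2, DLL3, JAG1, RBPJ, HEYL and LFNG had no tested probe.

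No probe of the intermediate filament genes passed a threshold. GFAP, the filament protein of astrocytes, had 2 tested probes. ILMN_1215847 read 13.01 and 12.90 in anterior and 13 and 12.80 in posterior lobes, and ILMN_1214715 read 9.88 and 10.30 in anterior and 9.86 and 9.94 in posterior lobes. The lobes overlapped on both, and on the second probe anterior replicate 2 alone stood apart. The log2 difference on ILMN_1215847 was -0.06 (SE 0.089), with an interval in fold, posterior over anterior, of 0.826 to 1.12 and a limma adjusted p of 0.860. On ILMN_1214715 it was -0.19 (SE 0.16, interval -0.58 to 0.20, limma adjusted p = 0.717). This second value rested on which anterior array was kept. It was -0.40 with a limma adjusted p of 0.041 without anterior replicate 1, and 0.02 without anterior replicate 2.

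VIM, the filament protein of radial and immature glia and of many mesenchymal cells, read 11.53 and 11.86 in anterior and 11.87 and 11.79 in posterior lobes on its tested probe. Anterior replicate 1 was the lowest array and the other 3 lay close together. The difference was 0.13 (SE 0.12, interval -0.17 to 0.43, limma adjusted p = 0.741). It became -0.03 without anterior replicate 1, and 0.30 without anterior replicate 2, where it passed the criterion.

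The matrix, filament and adhesion genes of radial glia were read on 11 tested genes, of which 0 passed the criterion higher and 2 lower in posterior, with a median of -0.056. NCAN and BCAN encode neurocan and brevican, chondroitin sulphate proteoglycans of the brain matrix. NCAN read 12.42 and 13.24 in anterior and 11.83 and 11.86 in posterior lobes, a difference of -0.98 (SE 0.25, limma adjusted p = 0.306). BCAN passed the criterion on both of its probes, at -0.51 and -0.40, with limma adjusted p of 0.388 and 0.263. On NCAN the anterior replicates lay far apart, and both were above the posterior arrays. PLEC1, which links filaments to other structures, passed on 1 probe at -0.49 and stood at -0.21 on its brighter probe.

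Glutamate uptake was measured through SLC1A3 and SLC1A2. SLC1A3, the transporter GLAST and the main glutamate carrier of Bergmann glia, showed the smallest difference among the members. Its probe read 14.82 and 14.96 in anterior and 14.95 and 14.85 in posterior lobes, with intensities of 28600.3 to 30900.5. The lobes overlapped, and the order of the arrays followed neither lobe nor replicate. The difference was 0.0044 (SE 0.069, limma adjusted p = 0.990), and the interval in fold was 0.892 to 1.13. In this fit a change of over 1.2-fold in either direction lay outside that interval. The SE was larger with cyclic loess (0.093) and without normalisation (0.13), and intervals for those settings are not given here. The highest intensity of any probe on the arrays was 39804.7, and the table carries no mark of saturation. The sign of so small a value changed with the normalisation.

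SLC1A2, the transporter GLT-1, was lower in both posterior samples on both tested probes, an order shown by 21.5% of all tested probes. ILMN_3076439 read 9.92 and 9.90 in anterior and 9.64 and 9.74 in posterior lobes. ILMN_3123195 read 9.15 and 9.17 in anterior and 9.13 and 9.0 in posterior lobes. On the second probe the gap between posterior replicate 1 and the anterior arrays was smaller than the gap between the posterior replicates. The difference was -0.22 (SE 0.10, interval -0.47 to 0.04, limma adjusted p = 0.552) on the first and -0.10 (SE 0.12, interval -0.38 to 0.19, limma adjusted p = 0.808) on the second.

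Other carriers and enzymes for amino acids of glia were read on 10 tested genes, of which 0 passed the criterion higher and 3 lower in posterior, with a median difference of -0.15. SLC6A9, the glycine transporter GlyT1, read 12.39 and 12.37 in anterior and 12.01 and 12.01 in posterior lobes. SLC25A18, a mitochondrial glutamate carrier, read 10.03 and 10.04 in anterior and 9.62 and 9.63 in posterior lobes. In both genes the lobes were well apart and the replicates close. The differences were -0.37 (SE 0.067, limma adjusted p = 0.183) for SLC6A9 and -0.41 (SE 0.099, limma adjusted p = 0.287) for SLC25A18. SLC6A11, the glial GABA transporter GAT-3, was chosen after its values were seen. It had the largest difference of the list, 0.87 (SE 0.36, limma adjusted p = 0.501), and did not pass. It read 9.05 and 8.04 in anterior and 9.72 and 9.12 in posterior lobes. The other transporters of the Slc1 family gave 0 calls over 4 tested genes, with a median of 0.048, and the largest was SLC1A6, the Purkinje cell glutamate transporter, at 0.26 (SE 0.12, limma adjusted p = 0.549).

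AQP4, the water channel of astrocyte endfeet, gave opposite directions on its 2 probes. The bright probe, ILMN_2757232, had intensities of 21280.1 and 17838.4 in anterior and 17956.5 and 15269.9 in posterior lobes before normalisation, and 14.28 and 14.23 against 14.14 and 13.87 after it. The dim probe, ILMN_1227682, had intensities of 187.8 and 140.3 in anterior and 196.7 and 187.2 in posterior lobes, and 7.43 and 7.28 against 7.63 and 7.54 on the log2 scale. After normalisation the posterior arrays lay below the anterior arrays on the bright probe and above them on the dim one. The difference on the bright probe was -0.25 (SE 0.094, interval -0.48 to -0.02), 1.19-fold higher in anterior lobes and so just short of the 1.2-fold criterion. It had the lowest unadjusted p of the members, 0.036 in the limma fit, and a limma adjusted p of 0.452. Without anterior replicate 2 (-0.28) or posterior replicate 1 (-0.38) it passed the criterion, and without posterior replicate 2 it was -0.12. On the dim probe the difference was 0.22 (SE 0.11, interval -0.05 to 0.50, limma adjusted p = 0.559), with detection p of 0.00748 to 0.0182 over the 4 arrays. It passed the criterion without anterior replicate 1, at 0.30, and was 0.15 without anterior replicate 2. Each probe kept its sign under all 14 alternative settings that were run. Some of these settings change only the filter or the test and leave the difference as it was, so they could not reverse it. Whether the probes read different transcripts was not tested.

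Ion transport and junction genes of glia were read on 12 tested genes, of which 1 passed the criterion higher and 2 lower in posterior, with a median difference of -0.095. GJB6, the astrocyte gap junction protein connexin 30, was higher by 0.39 (SE 0.14, limma adjusted p = 0.429), at 11.14 and 10.76 in anterior and 11.34 and 11.35 in posterior lobes. GJA1, connexin 43, which was chosen after its values were seen, did not pass at 0.11. ATP1B2, a sodium pump subunit, read 13.17 and 13.38 in anterior and 12.86 and 12.98 in posterior lobes, a difference of -0.36 (SE 0.090, limma adjusted p = 0.306). TTYH1, a membrane protein of the tweety family, passed at -0.33 and at -0.54 on 2 probes and stood at -0.14 on another. The 2 connexins thus differed in the result of the test, and the difference between them was not tested.

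FABP7, the brain lipid-binding protein of radial glia, read 9.05 and 8.92 in anterior and 8.89 and 9.06 in posterior lobes. The lobes overlapped fully, and the difference was -0.0091 (SE 0.13, interval -0.32 to 0.31, limma adjusted p = 0.988). ALDH1L1, a folate enzyme of astrocytes, read 11.34 and 11.67 in anterior and 11.26 and 11.38 in posterior lobes on ILMN_3100276. On ILMN_3027287 it read 7.17 and 7.48 in anterior and 6.92 and 7.26 in posterior lobes, and posterior replicate 1 was not detected, with a detection p of 0.0833. Both probes leaned to the anterior lobes with arrays that overlapped, at -0.18 (SE 0.13, limma adjusted p = 0.653) and -0.24 (SE 0.16, limma adjusted p = 0.653). These values too rested on which anterior array was kept. Without anterior replicate 1 both probes passed the criterion, and the brighter one stood at -0.34 with a limma adjusted p of 0.033 and the dimmer one at -0.39. Without anterior replicate 2 they stood at -0.021 and -0.084.

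Metabolic and lipid genes of glia were read on 16 tested genes, of which 0 passed higher and 2 lower, with a median difference of -0.12. APOE, the main lipid carrier secreted by astrocytes, was lower by 0.29 (SE 0.098, limma adjusted p = 0.421), at 13.18 and 13.38 in anterior and 12.90 and 13.08 in posterior lobes. FABP3, a fatty acid-binding relative of FABP7, was lower by 0.32 (SE 0.097, limma adjusted p = 0.384). DBI, an acyl-CoA-binding protein, passed at 0.29 on its dimmest probe and stood at 0.05 and -0.03 on the others. The secreted factors and receptors of glia gave 0 calls over 14 genes, with a median difference of -0.062. In that list SPARC, a matrix-associated protein made by Bergmann glia and by other cells, passed on 1 of its 3 probes, at -0.77 (SE 0.12, limma adjusted p = 0.139), and stood at -0.25 on its brightest probe and -0.04 on the dimmest. GDF10, a Bergmann glial growth factor chosen after its values were seen, did not pass at 0.11 (SE 0.055, limma adjusted p = 0.561).

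Transcription factors of glia were read on 11 tested genes, of which 1 passed the criterion higher and 0 lower, with a median difference of 0.097. This was STAT3, which transmits cytokine signals that favour astrocyte formation. It read 10.65 and 10.56 in anterior and 11.63 and 11.10 in posterior lobes on its brightest probe and 9.99 and 9.86 against 10.90 and 10.47 on another. Both posterior arrays were above both anterior arrays on these probes. The differences were 0.75 (SE 0.18, limma adjusted p = 0.280) and 0.76 (SE 0.16, limma adjusted p = 0.228), while another probe stood at -0.19 (SE 0.18, limma adjusted p = 0.747). SOX9, a factor of glial fate chosen after its values were seen, did not pass on either probe, at 0.14 and 0.30.

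**Figure D2:**
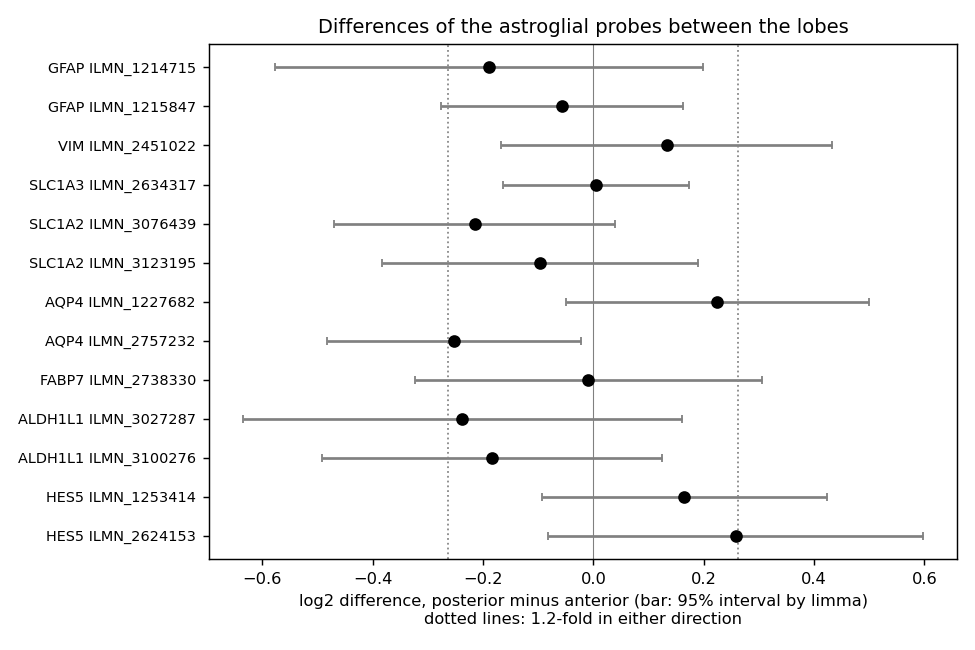
Log2 difference, posterior minus anterior, of each tested astroglial probe. Points are limma estimates from 2 arrays per lobe and lines are 95% intervals, beside 0 and the log2 value of a 1.2-fold change, 0.26. The interval of the bright AQP4 probe, -0.48 to -0.02, is the only one that leaves out 0.

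Over the 9 lists of related glial genes, 14 of 104 tested genes (13.5%) passed the study's criterion, 4 higher and 10 lower in posterior, and 0 reached an adjusted p under 0.05 in the limma fit. The corresponding share over all genes was 7.92%. The lists are a description and were not tested against other genes.

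Markers of some other cell types differed between the same samples. Of 10 tested gene symbols of myelinating oligodendrocytes 9 passed the criterion, all lower in posterior lobes, with a median difference of -0.86. Of these, 4 reached an adjusted p under 0.05. The list counts CNP and CNP1 as separate symbols, and CNP1 alone did not pass, at -0.15. MAG, a myelin adhesion protein, read 13.82 and 13.75 in anterior and 12.81 and 12.77 in posterior lobes, a difference of -0.99 (SE 0.062, limma adjusted p = 0.015). The summed signal of the list was 102966 and 103250 in anterior against 70230 and 66443 in posterior lobes. For the members it was 64825 and 67995 against 65997 and 59978, and the lobes overlapped. Most of the member sum came from the SLC1A3 probe and the bright AQP4 probe. Markers of meningeal fibroblasts ran the other way, with 5 of 7 tested genes higher in posterior, 0 lower, and a median of 0.51. DCN, a collagen-binding proteoglycan, differed by 0.93 (SE 0.071, limma adjusted p = 0.024), and the summed signal of that list was 16029 and 18175 against 23611 and 27618. VIM is also expressed by fibroblasts, and the part that either cell type had in the values of the glial genes was not tested.

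Neuronal, vascular and microglial markers mostly gave no call. Purkinje cell genes had 0 calls over 3 tested genes, with a median difference of -0.067. PCP2 stood at -0.12 on its brighter probe. On its dimmer probe it stood at 0.37 (SE 0.15, limma adjusted p = 0.504), and it passed on neither. CALB1, PCP4 and CAR8 had no tested probe. Of 6 tested genes of granule neurons 1 passed, ZIC2, higher by 0.72 (SE 0.22, limma adjusted p = 0.386) on its brighter probe and 0.14 on the other, and the list median was 0.079. GABAergic interneurons had 0 calls over 2 genes, with GAD1 at -0.09. Endothelium had 0 over 5, with PECAM1, chosen after its values were seen, at -0.28 and CDH5 passing on its dimmer probe only, at 0.46. Microglia had 0 over 5, with C1QB at 0.11. CSF1R, chosen after its values were seen, stood at -0.46 (SE 0.25, limma adjusted p = 0.586) on its dimmer probe. On its brighter probe it stood at 0.00047. The medians of these last 3 lists were -0.060, 0.056 and 0.034.

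**Figure D3:**
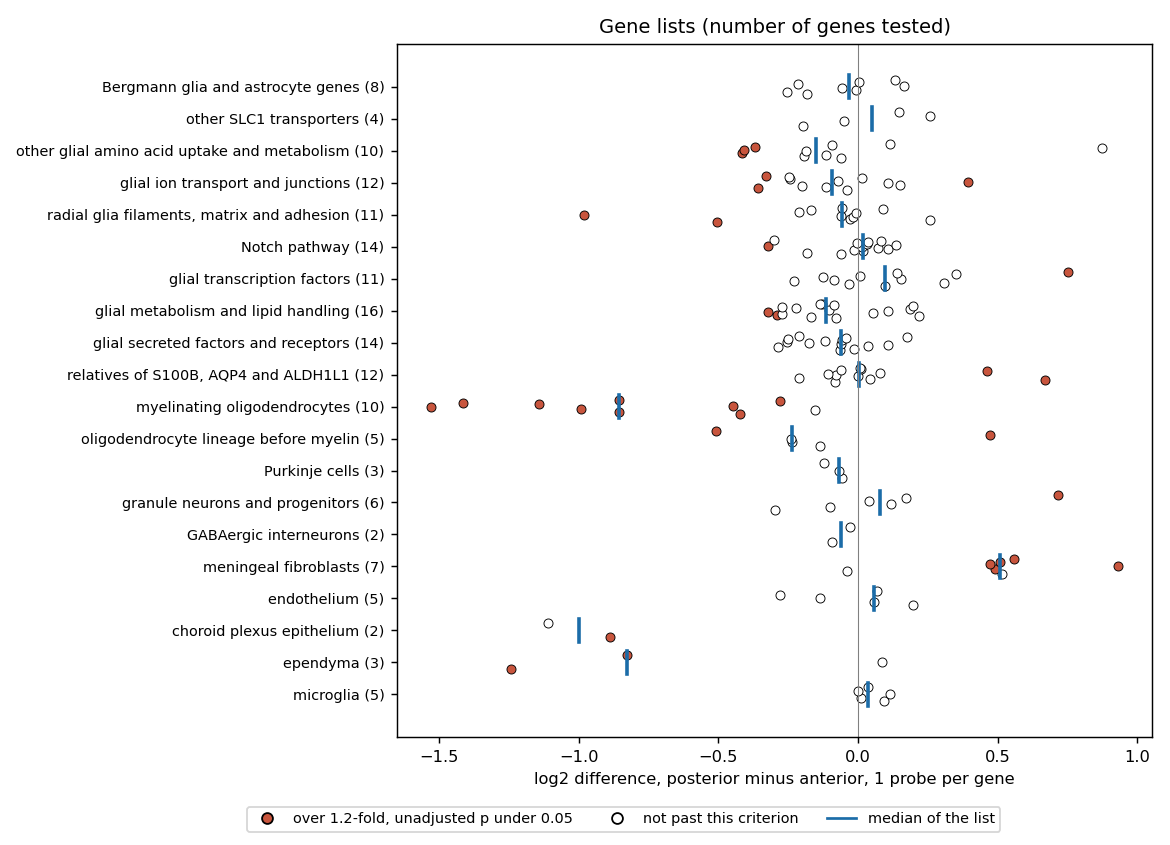
Log2 difference, posterior minus anterior, of each tested gene in the astroglial, related glial and other cell type lists, with 1 probe per gene. Points are genes, filled where past the study's criterion, and bars are list medians, with -0.033 for the astroglial genes, -0.86 for myelinating oligodendrocytes and 0.51 for meningeal fibroblasts.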

How the data were processed

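The table held 45281 probes for 4 Illumina MouseWG-6 arrays of total RNA. The authors deposited, per array, an intensity per probe that GenomeStudio 1.9.0 exported without normalisation, a detection score given as a fraction, which is 1 minus the detection p used here, and the SD and number of beads. The median bead number was 40 to 42 per array and member probes had 26 to 65. Arrays detected 46.5 to 47.6% of probes, and their median intensities were 110.2 to 129.6. The aligner and genome build behind the probes are not given in the sources used here. Another 16 columns were not used.

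Intensities were quantile normalised, set to a floor of 1 and taken to log2. Probes with a detection p under 0.05 on at least 2 of 4 arrays (21726) were compared by lobe with limma 3.58.1 in R 4.3.3 (lmFit, eBayes with intensity trend), and p-values were adjusted by Benjamini-Hochberg over all of them. All tests were two-sided and intervals are 95%. The precision is limited by the number of arrays. The methods' t-test is the unpaired comparison that the study names, run on the same values.

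The members and all lists were chosen with earlier results of these data known. Every member probe was named, and from each other list up to 4 genes with a probe past the criterion, or else the gene of largest difference; any other gene is marked where it is named. The values of 1 list gene past the criterion are not reported here. Where a gene had several probes, list counts and medians used the one of highest mean signal. All 10 member symbols matched RefSeq gene names. Promoters came from RefSeq GRCm38.p6. The analysis was also run on simulated data with known differences. Its pass condition on calls used only spreads drawn from limma's own fit and was changed after a first failure. This run therefore does not show how often the fit calls wrongly on these arrays. The alternatives were neqc with offset 16, no normalisation, scaling to the 75th percentile, cyclic loess, other filters, no trend, the t-test, a 1.5-fold threshold, the mean over probes of a gene, the replicate block and leaving out each array.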

Additional observations from a re-analysis of the deposited data

How the results depend on the processing

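Over the 13 tested probes of the astroglial genes, 180 values under alternative settings were computed, of which 169 kept their sign and 11 reversed. Their adjusted p ran from 0.033 to 1.00. The reversed values lay near 0, and none came from the other filters, no trend, the t-test or the replicate block. Those settings use the same normalised values and leave each difference unchanged, so no sign could reverse under them. SLC1A3 stood at -0.052 without normalisation, -0.019 with a common 75th percentile and -0.073 with cyclic loess, and ranged from -0.066 (without anterior replicate 1) to 0.074 when 1 array was left out, with -0.050 without posterior replicate 1. FABP7 stood at 0.0023 with the common percentile and ranged from -0.097 to 0.077 when 1 array was left out, above 0 without anterior replicate 1 (0.054) or posterior replicate 1 (0.077). The same ranges were -0.40 to 0.021 for GFAP ILMN_1214715, above 0 without anterior replicate 2, -0.16 to 0.043 for GFAP ILMN_1215847, above 0 without posterior replicate 2, and -0.035 to 0.30 for VIM, below 0 without anterior replicate 1. The causes were not tested. Of 285 medians of the other gene lists under these settings, 46 moved by more than the spread between replicates.

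The number of member probes past the study's criterion, 0, became 1 with no filter on dim probes, through the VIM probe ILMN_1232980 that was detected on no array, and ranged from 0 to 4 when 1 array was left out. It stayed 0 with a 1.5-fold threshold and the methods' t-test, but neither could have added a probe. The largest absolute log2 difference of a member was 0.258, under the 0.263 of a 1.2-fold change, and neither setting changes the differences. The median difference of the members ranged from -0.088, without posterior replicate 1, to -0.027 when 1 array was left out. Over all tested probes, 1802 passed the criterion, against 741 by the methods' t-test, 389 at 1.5-fold and 766 to 4677 when 1 array was left out, the highest without anterior replicate 1. An adjusted p under 0.05 was reached by 23 probes, against 123 without normalisation, 73 with no filter, 13 with no intensity trend, 0 by the methods' t-test, and 0 to 2538 when 1 array was left out. It was 0 without either posterior array, 221 without anterior replicate 2 and 2538 without anterior replicate 1. When 1 array was left out, the lone sample of that lobe was assumed to vary like the other lobe.

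The replicate numbers are shared between lobes, but no label says that a number marks 1 animal, and with 2 pairs the pairing cannot be settled. The differences between replicates of the lobes correlated across probes at 0.46. With the replicate block 2818 probes passed the criterion and 588 an adjusted p of 0.05, while all 13 member probes kept their side of that threshold. Of the members 0 passed the criterion, which was fixed in advance, as the block leaves the differences unchanged and none reached 1.2-fold.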

Other observations

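Among 12 tested relatives of S100B, AQP4 and ALDH1L1 (other S100 proteins, aquaporins and aldehyde dehydrogenases), 2 genes passed the study's criterion, both higher in posterior lobes, with a list median of 0.0037. The share over all genes was 3.45% in that direction. ALDH1A2, an enzyme that makes retinoic acid and is known in meninges, read 7.5 and 7.82 in anterior and 8.01 and 8.65 in posterior lobes. Its difference was 0.67 (SE 0.23, limma adjusted p = 0.437), and 0.62 (SE 0.18, limma adjusted p = 0.361) on a dimmer probe. S100A11, a calcium-binding protein, read 10.18 and 10.37 in anterior and 10.72 and 10.75 in posterior lobes, a difference of 0.46 (SE 0.10, limma adjusted p = 0.266). Meningeal fibroblast markers were higher in the same posterior samples, and their part in these values was not tested.

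Ependymal and early oligodendrocyte markers were mixed. Of 3 tested ependymal genes 2 passed, both lower in posterior, with DYNLRB2, a dynein light chain, at -1.24 (SE 0.21, limma adjusted p = 0.160), TEKT1, a protein of ciliary microtubules, at -0.83 (SE 0.19, limma adjusted p = 0.268), and a list median of -0.83. FOXJ1, the factor that switches on motile cilia, did not pass at 0.09 and was chosen after its values were seen. Of 5 tested genes of the oligodendrocyte lineage before myelin, SOX10 passed at -0.51 (SE 0.094, limma adjusted p = 0.187) and PDGFRA, the receptor that marks their progenitors, at 0.47 (SE 0.081, limma adjusted p = 0.160), with a list median of -0.24.

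Markers of choroid plexus epithelium varied between arrays of 1 lobe. TTR, its transthyretin, was chosen after its values were seen and did not pass. It read 9.10 and 13.34 in anterior and 8.37 and 11.85 in posterior lobes. The arrays of replicate 2 were thus high in both lobes, and the SE of TTR was 1.60. CLIC6, an ion channel of that epithelium, passed at -0.89 (SE 0.27, limma adjusted p = 0.386), and the list median over 2 tested genes was -1.0.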
